A study of Mus musculus with 14 samples.

Results

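The genes described here code for the proteasome, its regulators and its assembly factors. They are the 36 genes, of 6288 with a value and a single symbol on these arrays, whose symbol begins with Psma, Psmb, Psmc, Psmd, Psme, Psmf or Psmg, together with Pomp and without Psme3ip1, which is no subunit. All 36 had values on at least 3 arrays of each strain and entered the tests. A further symbol of this kind, Psme3, was on the platform with no value on any array. Psmc3ip carries a proteasome-like symbol but codes for a cofactor of meiotic recombination, so it is described once and all counts are over the other 35 genes. These are 12 subunits of the 20S core, 15 subunits of the 19S regulator, 5 assembly factors of the core, 2 assembly chaperones of the 19S base and 1 subunit of the PA28 activator. They were read by 48 probes including that of Psmc3ip, and 10 of the genes had more than 1 probe.

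Spleen RNA of AcB61 mice (8 arrays) and of AcB55 mice (6 arrays) was hybridised to cDNA arrays, each with A/J spleen RNA in its second channel. AcB61 and AcB55 are inbred recombinant congenic lines, in which parts of the genome come from C57BL/6 and the rest from A/J, and both are known for raised red cell production in the spleen. The labels name no treatment or infection and give neither age, sex nor genotype beyond the strain, nor which arrays shared a mouse or an RNA pool. Values are given as the log2 ratio of strain over A/J, so 0 means equal signal. The strain is channel 1 and A/J channel 2 of every array, so the direction strain over A/J is likely, although the dyes are not given per array. A/J was never hybridised with A/J, and it is not given whether the A/J RNA came from a shared pool. The spread among A/J mice may therefore be absent from the p-values, which reflect array-to-array spread alone, part of which may be technical. A ratio carries no level, so the tissue could not be checked against its markers, and no gene's level is set against another's. In whole spleen, fewer cells of a type and less RNA per cell cannot be told apart.

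The proteasome degrades proteins that carry ubiquitin chains. Its 20S core is a barrel of stacked rings, in which alpha subunits form the gate and beta subunits carry the proteolytic sites, and the 19S regulator caps it, with a base of ATPases that unfold the substrate and a lid that removes ubiquitin. PA28 is another cap, induced by interferon, which together with the inducible beta subunits of the immunoproteasome helps to make peptides for MHC class I. Developing red cells need the proteasome to remove unpaired globin chains and to remodel the cell, and lymphocytes of the spleen are rich in immunoproteasome.

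The AcB61 arrays did not form a single group. Over all genes and features other than the proteasome genes, replicates 2, 6 and 8 correlated with each other at r = 0.79 to 0.84 and replicates 3, 5 and 7 at 0.71 to 0.79. Between these 2 sets r lay between -0.083 and 0.16, while replicates 1 and 4 correlated with both, at 0.37 to 0.64. The AcB55 arrays correlated at 0.37 to 0.75. Values of the 2 sets did not overlap for 7310 of the 13045 features tested (56%) and for 21 of the 35 proteasome genes, of which 13 were higher on replicates 3, 5 and 7 and 8 on replicates 2, 6 and 8. The means had opposite signs for 14 genes. Whether the dye orientation, the mouse or the RNA pool moved with these sets was not tested, since none of them is given per array. AcB61 calls of the proteasome genes are therefore also given without replicates 2, 6 and 8 and without replicates 3, 5 and 7, settings chosen after the data were seen. A further 11 genes passed in 1 of these reduced sets and not over all arrays, and their values there are given with each gene. The matching share of all features is not given. The remaining 10 passed in neither, with values between -0.12 and 0.24: Pomp, Psma6, Psmb11, Psmd2, Psmd3, Psmd5, Psmd6, Psmd10, Psmg1 and Psmg3.

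**Figure D1:**
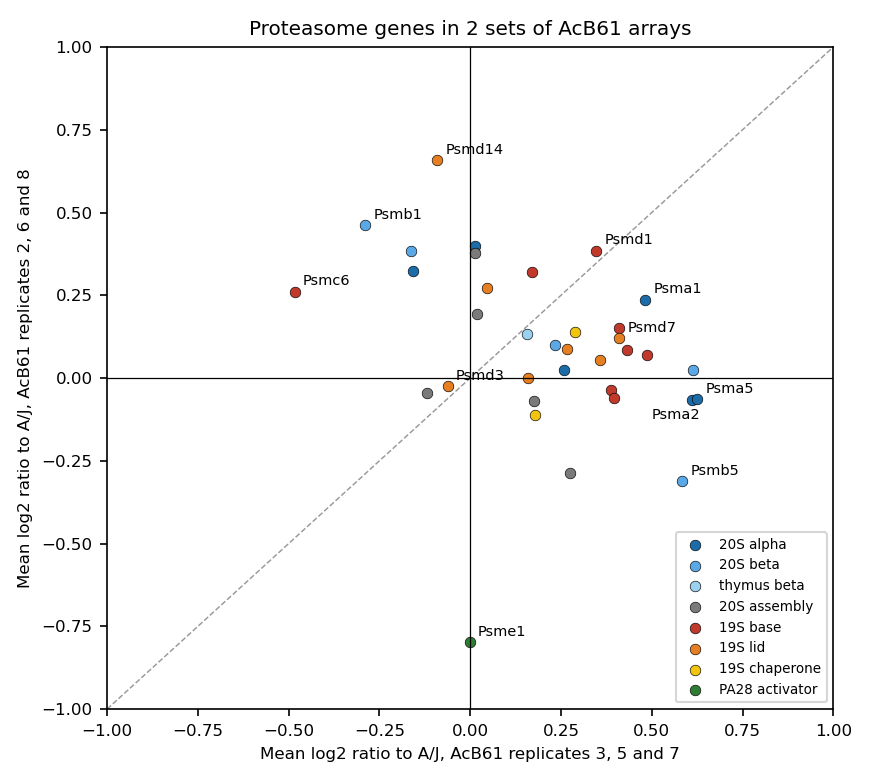
Mean log2 ratio to A/J of each of the 35 proteasome genes on AcB61 replicates 2, 6 and 8 (vertical axis) and on replicates 3, 5 and 7 (horizontal axis), with a point per gene coloured by its role. The dashed line marks equal values. Psmd1 lies near it at 0.39 and 0.35, whereas Psme1 is at -0.80 on the first set and -0.0018 on the second, and Psmc6 at 0.26 and -0.48.

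In AcB61, 5 of 12 subunits of the 20S core and 8 of 15 subunits of the 19S regulator rose relative to A/J, and the PA28 subunit Psme1 fell. Among the 35 genes there were 13 increases and 1 decrease, and 21 genes were not past the threshold (limma, adjusted p under 0.05 over all features), against 23.8% of all features that passed (10.5% rose and 13.3% fell) and 22.1% of single-symbol genes (13.3% rose and 8.8% fell). The median was 0.15, beside -0.00067 over all features and 0.015 over single-symbol genes. The 13 increases lay between 0.15 for Psmd12 and 0.32 for Psmb7 and Psmd1, which for Psmd1 is a fold of 1.25. Of the 13, 3 also passed in both reduced sets of arrays, namely Psmd1, Psma1 and Psmd7 (23.1%, beside 44.1% of the 1365 features that rose). Without replicates 2, 6 and 8 there were 14 increases, 11 of them shared with the full set, and without replicates 3, 5 and 7 there were 11 increases, of which 5 were shared. Without replicates 1 and 4 there were 7 increases, and Psma3, Psma5, Psmb4, Psmb7, Psmd4 and Psmd11 no longer passed (adjusted p = 0.0507 to 0.129). Their values there were 0.21, 0.28, 0.17, 0.32, 0.28 and 0.21 in that order, against 0.21, 0.27, 0.16, 0.32, 0.24 and 0.19 over all 8 arrays. The share of all features that rose with arrays left out is not given, so the counts of increases in those settings are not set against it.

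AcB55 had fewer calls. Here 2 genes rose, Psmd1 and Psmd2 of the 19S base, 2 fell, Psme1 and the assembly factor Pomp, and 31 did not pass, against 20.7% of all features that passed (9.77% higher and 10.9% lower) and 26.7% of single-symbol genes (11.2% higher and 15.5% lower). The median of 0.015 stood beside -0.00195 over all features. In the means, 8 of 12 core subunits lay below 0 (median -0.093, none past the test in limma and 2 lower at an unadjusted p under 0.05), and 12 of 15 subunits of the 19S regulator lay above 0 (median 0.058). Without AcB55 replicates 1 and 2, 10 of 12 core subunits lay below 0 (median -0.16) and 7 of 15 subunits of the regulator lay above 0 (median -0.0053), and the difference between these groups was not tested. In AcB61 all 12 core subunits and 13 of 15 subunits of the regulator lay above 0 (medians 0.15 and 0.19). Without replicates 2, 6 and 8, Psma7 (-0.083), Psmb1 (-0.19) and Psmb2 (-0.061) of the core lay below 0, as did Psmc6, Psmd3 and Psmd14. Without replicates 3, 5 and 7, Psmb5 of the core (-0.14) lay below 0, as did Psmd2 and Psmd3. Of all features, 49.8% lay above 0 in AcB61 and 49.3% in AcB55, and of single-symbol genes 55.9% and 45.1%.

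**Figure D2:**
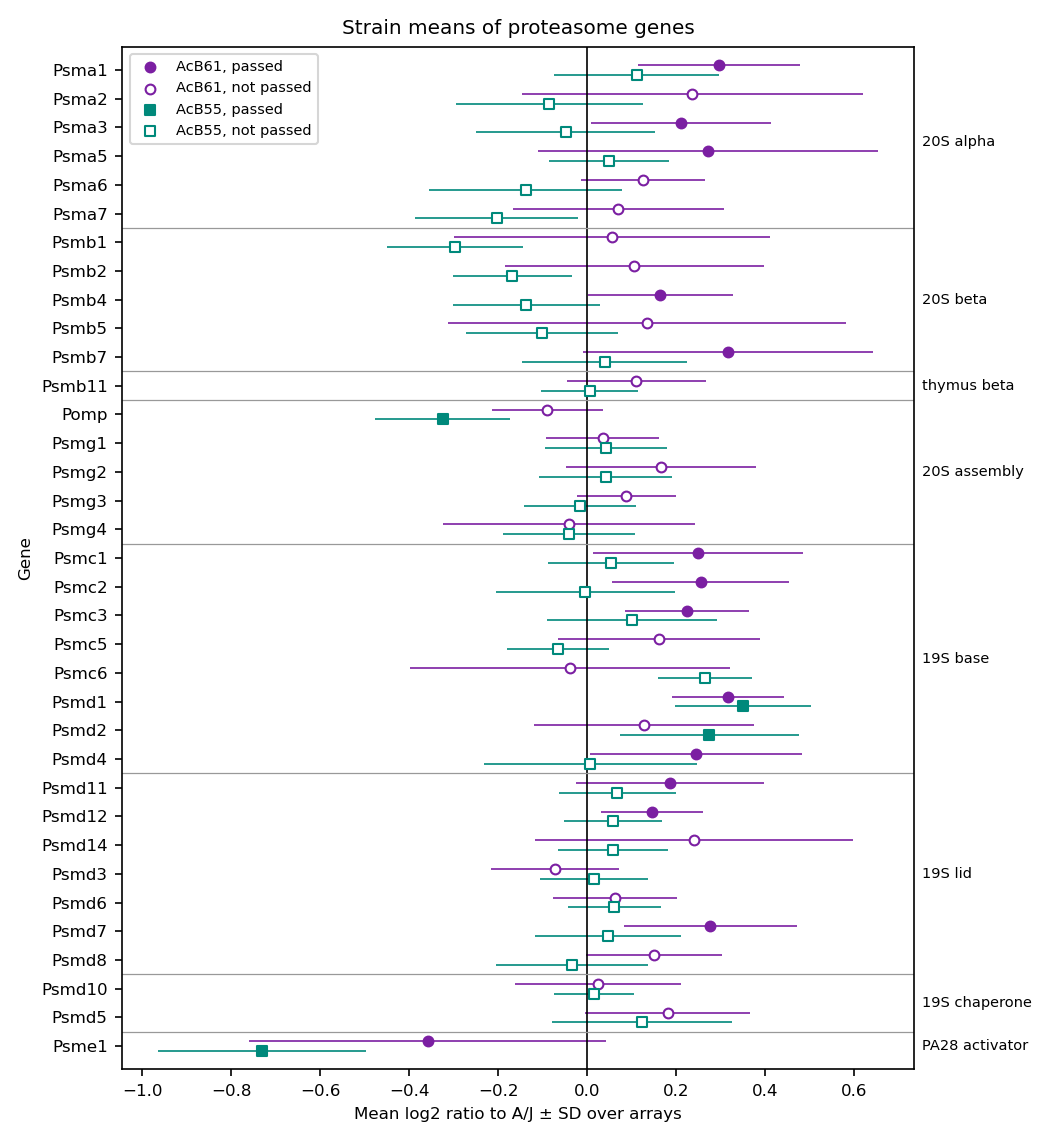
Mean log2 ratio to A/J ± SD over arrays of each proteasome gene in AcB61 (circles, up to 8 arrays) and AcB55 (squares, up to 6 arrays), ordered by role. Filled symbols passed the test at an adjusted p under 0.05. AcB61 has 14 filled symbols, 13 of them right of 0, and AcB55 has 4, with Psme1 at -0.36 in AcB61 and -0.73 in AcB55.

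The upstream sequences of Psma1, Psmd1, Pomp and Psme1 are shown because each has a call that held under every setting that fitted it. These calls were Psma1 in AcB61, Psmd1 in both strains, and Pomp and Psme1 in AcB55. The Psmd7 call in AcB61 held as well (limma adjusted p at most 0.0348), but Psmd7 had no promoter to show. Each line gives the 250 bases before the annotated start, from the RefSeq table of build GRCm38.p6, in lower case with CCGGAA (the ETS core) and CCAAT (the NF-Y box) on either strand in capitals. The array files name no build.
Psma1, chr7:114276117-114276366, minus strand: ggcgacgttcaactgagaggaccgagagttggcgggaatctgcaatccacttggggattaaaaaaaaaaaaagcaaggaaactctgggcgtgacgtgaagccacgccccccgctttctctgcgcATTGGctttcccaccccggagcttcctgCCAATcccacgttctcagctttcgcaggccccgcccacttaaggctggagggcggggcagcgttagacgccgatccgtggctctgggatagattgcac
Psmd1, chr1:86064369-86064618, plus strand: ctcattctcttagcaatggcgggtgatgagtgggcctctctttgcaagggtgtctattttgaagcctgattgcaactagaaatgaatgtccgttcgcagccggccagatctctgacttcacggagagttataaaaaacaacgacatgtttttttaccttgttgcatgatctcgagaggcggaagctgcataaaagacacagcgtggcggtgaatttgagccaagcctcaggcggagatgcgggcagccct
Pomp, chr5:147860378-147860627, plus strand: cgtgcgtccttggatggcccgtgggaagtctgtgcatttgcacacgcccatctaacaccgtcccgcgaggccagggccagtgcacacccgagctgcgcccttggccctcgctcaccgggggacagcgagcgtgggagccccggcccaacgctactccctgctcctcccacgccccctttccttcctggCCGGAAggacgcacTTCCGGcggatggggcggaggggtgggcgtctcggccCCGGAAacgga
Psme1, chr14:55578244-55578493, plus strand: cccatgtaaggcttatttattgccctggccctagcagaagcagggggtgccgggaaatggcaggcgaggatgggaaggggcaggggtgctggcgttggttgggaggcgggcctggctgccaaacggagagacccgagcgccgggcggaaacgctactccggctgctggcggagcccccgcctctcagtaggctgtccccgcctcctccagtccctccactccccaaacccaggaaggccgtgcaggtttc

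The windows differed in these letters. That of Pomp held the ETS core 3 times, starting at positions -62, -48 and -11 from the start site, that of Psma1 held the NF-Y box at -126 and -98, and those of Psmd1 and Psme1 held none of the 4 motifs searched. Of the 35 genes, 28 had a promoter in the table. The others were Psmb1, Psmb2, Psmb7, Psmc3, Psmd3, Psmd7 and Psmg2. The ETS core CCGGAA was present on either strand in 14 of the 28 (50%), against 13.6% of the promoters of 27025 genes, a set that includes non-coding genes. Matches of this motif on opposite strands could overlap, as they did in Psmd4. The NF-Y box CCAAT was in 11 of 28 (39.3%, against 37.5% of all), the antioxidant response element core TGACNNNGC, which the proteasome activator Nfe2l1 is known to bind, in 3 (10.7% against 11.5%), and the interferon-stimulated response element (GAAA, any 2 bases, GAAA) in 1 (3.57% against 3.46%). The 3 genes with the antioxidant element core were Psmd12, Psmc6 and Psmb5, and the gene with the interferon element was Psmd4.

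The alpha ring forms the gate of the core, and 6 of its genes were measured. In AcB61, 3 rose and 3 did not pass, and in AcB55 none passed (limma, with 1 of 6 lower at an unadjusted p under 0.05). Psma1 ranged from 0.067 through a median of 0.27 to 0.54 on 7 AcB61 arrays, and from -0.059 through 0.040 to 0.36 on the AcB55 arrays. All 7 AcB61 values were above 0, and the strains overlapped. The AcB61 mean of 0.30 ± 0.18 (SD, n = 7) had an adjusted p of 0.00391 in limma, and its AcB55 mean of 0.11 ± 0.19 (n = 6) did not pass (adjusted p = 0.333). In the reduced sets of arrays Psma1 remained past the threshold, at 0.34 (adjusted p = 0.00704) without replicates 2, 6 and 8 and 0.22 (adjusted p = 0.0332) without replicates 3, 5 and 7.

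Psma3 and Psma5 rose in AcB61 on different arrays. Psma3 ran from -0.049 through 0.20 to 0.56 in AcB61 and from -0.30 through -0.072 to 0.19 in AcB55, with the highest AcB61 values on replicates 6 and 8. Its AcB61 mean of 0.21 ± 0.20 (limma adjusted p = 0.0293, n = 8) became 0.099 (adjusted p = 0.363) without replicates 2, 6 and 8 and 0.33 (adjusted p = 0.00379) without replicates 3, 5 and 7. Psma5 ran from -0.21 through 0.22 to 0.95 in AcB61 and from -0.11 through 0.051 to 0.24 in AcB55, with the highest AcB61 values on replicates 5 and 7. Its AcB61 mean of 0.27 ± 0.38 (limma adjusted p = 0.0442, n = 8) became 0.061 (adjusted p = 0.599) without replicates 3, 5 and 7 and 0.47 (adjusted p = 0.00118) without replicates 2, 6 and 8. Both calls were also lost when single arrays were left out. For Psma3 these were AcB61 replicates 1, 2, 6 or 8 (adjusted p = 0.0589 to 0.0896). For Psma5 they were AcB61 replicates 1, 3, 4, 5 or 7 and AcB55 replicates 1, 3, 4 or 5 (adjusted p = 0.0524 to 0.137). With AcB61 fitted alone Psma5 did not pass (limma adjusted p = 0.115). Psma2, Psma6 and Psma7 averaged 0.24, 0.12 and 0.070 in AcB61 and -0.085, -0.14 and -0.20 in AcB55, and none of these 6 means passed. Psma2 passed without replicates 2, 6 and 8 (0.42, limma adjusted p = 0.00915) and was 0.011 without replicates 3, 5 and 7. Psma7 passed without replicates 3, 5 and 7 (0.21, adjusted p = 0.0491) and was -0.083 without replicates 2, 6 and 8. Psma2 reached 1.00 on AcB61 replicate 7, the highest value of any alpha subunit, and -0.11 on replicate 6. Psma7 was below 0 on all 6 AcB55 arrays, from -0.56 on replicate 6 to -0.042 on replicate 1 (limma adjusted p = 0.0915), and its probes both averaged below 0 there, at -0.30 and -0.15. The AcB55 mean of Psma7 passed with array weights (-0.19, adjusted p = 0.0498) and where AcB61 replicates 2, 6 and 8 or 3, 5 and 7 were left out of the shared spread (-0.20, adjusted p = 0.0285 and 0.0341).

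Of the beta ring, which holds the proteolytic sites, 5 constitutive subunits and the thymus-specific Psmb11 were measured, and the inducible subunits Psmb8, Psmb9 and Psmb10 were not analysed here. Psmb7, which carries the trypsin-like site, ranged from -0.095 through 0.24 to 0.80 in AcB61 and from -0.18 through 0.047 to 0.23 in AcB55. It rose in AcB61 at 0.32 ± 0.33 (limma adjusted p = 0.0125, n = 8), where replicates 3, 5 and 7 held 0.26 to 0.80 and replicates 2, 6 and 8 held -0.095 to 0.13. Without replicates 3, 5 and 7 the mean was 0.14 and did not pass (adjusted p = 0.212), and without replicates 2, 6 and 8 it was 0.49 (adjusted p = 0.000673). Psmb4, a subunit with no proteolytic site, ranged from -0.11 through 0.18 to 0.46 in AcB61 and from -0.39 through -0.16 to 0.061 in AcB55. It rose in AcB61 at 0.16 ± 0.16 (limma adjusted p = 0.0475, n = 8), just inside the threshold, and was 0.12 (adjusted p = 0.214) without replicates 3, 5 and 7 and 0.20 (adjusted p = 0.043) without replicates 2, 6 and 8. The call was also lost without any one of AcB61 replicates 1, 3, 4, 6, 7 or 8 or of AcB55 replicates 3, 4 or 5 (adjusted p = 0.057 to 0.144). With AcB61 fitted alone Psmb4 did not pass (limma adjusted p = 0.0673).

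The other beta subunits did not pass in either strain over all arrays with equal weight, but 3 did in reduced sets of AcB61 arrays. Psmb5 was 0.40 (limma adjusted p = 0.00406) without replicates 2, 6 and 8 and -0.14 (adjusted p = 0.287) without replicates 3, 5 and 7. Without replicates 3, 5 and 7 Psmb1 was 0.26 (adjusted p = 0.031) and Psmb2 0.27 (adjusted p = 0.018), and without replicates 2, 6 and 8 they were -0.19 and -0.061, neither past the threshold. Psmb1 was below 0 on every AcB55 array, from -0.48 through -0.31 to -0.090, and in AcB61 ranged from -0.32 through -0.035 to 0.51. Its AcB55 mean of -0.30 ± 0.15 lay just outside the threshold (limma adjusted p = 0.0504, n = 6). It passed with array weights (-0.31, adjusted p = 0.00909). It also passed where AcB61 replicates 2, 6 and 8 or 3, 5 and 7 were left out of the shared spread (-0.30, adjusted p = 0.00155 and 0.00867). It did not pass without AcB55 replicates 1 and 2 (-0.38, adjusted p = 0.0596) or without the AcB55 arrays whose titles end in b (-0.29, adjusted p = 0.185). Its AcB61 mean was 0.056 ± 0.35, with 0.40 to 0.51 for replicates 2, 6 and 8 but -0.32 to -0.24 for replicates 3, 5 and 7. Psmb2, which like Psmb1 has no proteolytic site, averaged 0.11 ± 0.29 in AcB61 and -0.17 ± 0.13 in AcB55. Psmb5, which carries the chymotrypsin-like site, averaged 0.13 ± 0.45 in AcB61 and -0.10 ± 0.17 in AcB55. It had the widest AcB61 spread of the 35 genes, with -0.45 on replicate 2 and 0.77 on replicate 7. Psmb11, known from epithelial cells of the thymus, averaged 0.11 ± 0.16 in AcB61 and 0.0051 ± 0.11 in AcB55 and passed in neither (adjusted p = 0.144 and 0.974).

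Of the 5 assembly factors of the core, Pomp alone passed, and it did so in AcB55. Pomp, which helps the half-built core to close, was below 0 on all 6 AcB55 arrays, from -0.57 through -0.32 to -0.13. In AcB61 it ranged from -0.27 through -0.078 to 0.092, and 1 of 8 arrays was above 0. Its AcB55 mean of -0.33 ± 0.15 passed (limma adjusted p = 0.000632, n = 6) and its AcB61 mean of -0.090 ± 0.12 did not (adjusted p = 0.243, n = 8). Across all settings tried, the AcB55 value lay between -0.40 and -0.28 and stayed past the threshold, with an adjusted p of at most 0.0109. The chaperones of the alpha ring, Psmg1 to Psmg4, had means between -0.041 and 0.17 in AcB61 and between -0.041 and 0.043 in AcB55, none past the test (1 of the 5 factors was higher in AcB61 at an unadjusted p under 0.05 in limma). Without replicates 3, 5 and 7, Psmg2 was 0.26 (limma adjusted p = 0.0146) and Psmg4 -0.23 (adjusted p = 0.0108), and without replicates 2, 6 and 8 they were 0.039 and 0.11, neither past the threshold.

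**Figure D3:**
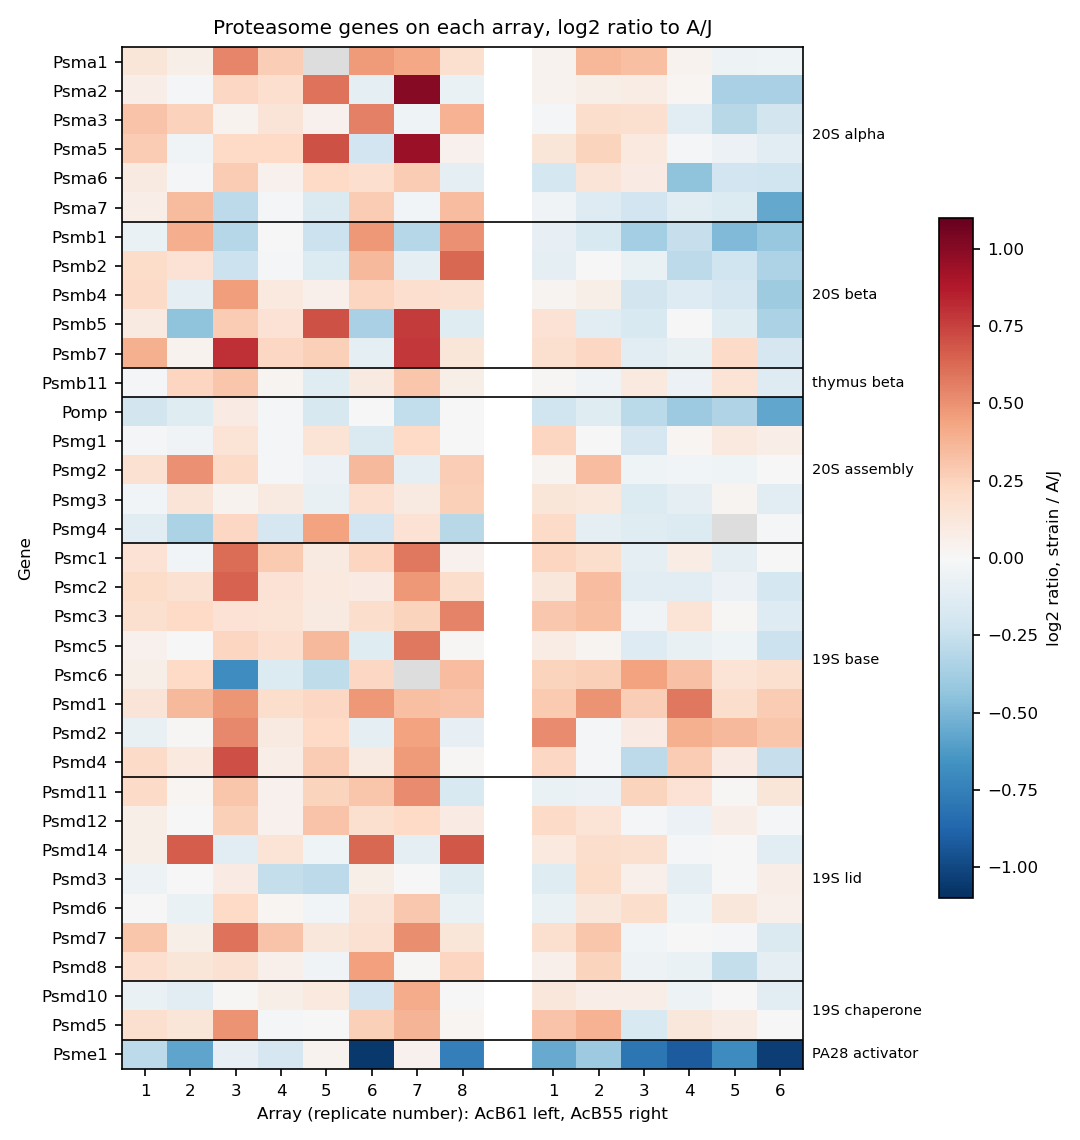
Log2 ratio to A/J of the 35 proteasome genes (rows, grouped by role) on each of the 8 AcB61 arrays (left) and 6 AcB55 arrays (right), with red above and blue below 0 and grey for no value. Psmd1 is red on all 14 arrays and Psme1 is blue on all 6 AcB55 arrays, reaching -1.06 on AcB61 replicate 6.

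In the base of the 19S regulator 5 of 8 genes rose in AcB61 and 2 in AcB55. Psmd1, its large scaffold subunit, ranged from 0.14 through 0.32 to 0.49 in AcB61 and from 0.19 through 0.28 to 0.58 in AcB55. Every array of both strains was above 0, and the strains covered nearly the same range. The means were 0.32 ± 0.13 in AcB61 (adjusted p = 0.000282 in limma, n = 8) and 0.35 ± 0.15 in AcB55 (adjusted p = 0.000337, n = 6), folds of 1.25 and 1.28. Both probes of Psmd1 passed in both strains, at 0.33 and 0.30 in AcB61 and at 0.29 and 0.41 in AcB55. The AcB61 mean was 0.28 without replicates 2, 6 and 8 and 0.30 without replicates 3, 5 and 7, both past the threshold (adjusted p = 0.00537 and 0.00286).

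Psmd2, the other scaffold of the base, rose in AcB55 by its own test. The difference of -0.15 for AcB61 minus AcB55 did not pass over all arrays (limma adjusted p = 0.43). Without AcB61 replicates 3, 5 and 7 it was -0.31 and passed (adjusted p = 0.0276), and without replicates 2, 6 and 8 it was -0.034 (adjusted p = 0.87). It ranged from -0.10 through 0.054 to 0.53 in AcB61 and from -0.019 through 0.33 to 0.52 in AcB55. The AcB61 mean of 0.13 ± 0.25 did not pass (limma adjusted p = 0.25, n = 8), and the AcB55 mean of 0.27 ± 0.20 did (adjusted p = 0.0282, n = 6). The probes differed in size: one averaged 0.25 in AcB61 and 0.39 in AcB55, the other 0.0068 in AcB61 and 0.16 in AcB55, and the first alone passed, in AcB55. The AcB55 call was lost without replicate 1, 4, 5 or 6 (adjusted p = 0.0718 to 0.109).

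The ATPases of the base thread the substrate into the core, and 3 of the 5 measured rose in AcB61 while none passed in AcB55 (limma, with Psmc6 alone higher at an unadjusted p under 0.05). Psmc1 ranged from -0.030 through 0.20 to 0.62 in AcB61 and from -0.097 through 0.044 to 0.24 in AcB55, and its AcB61 mean was 0.25 ± 0.24 (limma adjusted p = 0.0117). Psmc2 ranged from 0.093 through 0.18 to 0.65 in AcB61 and from -0.19 through -0.091 to 0.34 in AcB55, and its AcB61 mean was 0.26 ± 0.20 (limma adjusted p = 0.0094). Both had their highest AcB61 values on replicates 3 and 7. Without replicates 3, 5 and 7 neither passed, at 0.14 for Psmc1 and 0.16 for Psmc2 (adjusted p = 0.126 and 0.0921), and without replicates 2, 6 and 8 both did, at 0.35 for Psmc1 and 0.32 for Psmc2 (adjusted p = 0.00326 and 0.0107). The 3 probes of Psmc2, which carry the same sequence record, read 0.26, 0.28 and 0.24 in AcB61.

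Psmc3 ranged from 0.10 through 0.18 to 0.55 in AcB61 and from -0.15 through 0.081 to 0.34 in AcB55. All 8 AcB61 arrays were above 0, with a mean of 0.22 ± 0.14 (limma adjusted p = 0.00857), which was 0.17 (adjusted p = 0.0788) without replicates 2, 6 and 8 and 0.26 (adjusted p = 0.0181) without replicates 3, 5 and 7. Its probes disagreed on the AcB61 arrays. For one, replicates 2, 6 and 8 held 0.62 to 0.78 and replicates 3, 5 and 7 held -0.0022 to 0.18, and it passed with a mean of 0.37 (limma adjusted p = 0.00269). The other read -0.24 to 0.32 and 0.14 to 0.42 on the same sets and did not pass, with a mean of 0.080 (adjusted p = 0.528). Psmc5 did not pass in AcB61 (0.16 ± 0.23) or AcB55 (-0.065 ± 0.12). It passed without replicates 2, 6 and 8 (0.28, limma adjusted p = 0.00657) and was 0.025 without replicates 3, 5 and 7. Its probes averaged 0.22 (limma adjusted p = 0.0478), 0.23 and 0.033 in AcB61.

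Psmc6 was lower in AcB61 than in AcB55 by its means, a difference of -0.30 that did not pass (limma adjusted p = 0.152). Without AcB61 replicates 2, 6 and 8 the difference was -0.53 and passed (adjusted p = 0.00629), and without replicates 3, 5 and 7 it was -0.13 (adjusted p = 0.357). Against A/J, Psmc6 in AcB61 was -0.26 (adjusted p = 0.0463) in the first of these sets and 0.14 (adjusted p = 0.149) in the second. It averaged -0.039 ± 0.36 in AcB61 (n = 7) and 0.27 ± 0.11 in AcB55 (n = 6). All 6 AcB55 arrays were above 0, from 0.15 to 0.44, yet the mean did not pass with the spread shared between strains (limma adjusted p = 0.0701). With AcB55 fitted alone it did (adjusted p = 0.00429), and so did Psmb1 (adjusted p = 0.00474). Psmc6 in AcB55 also passed with array weights (0.27, limma adjusted p = 0.0185). The same held without AcB61 replicates 2, 6 and 8 or 3, 5 and 7 (0.27, adjusted p = 0.0157 and 0.00373). It did not pass without AcB55 replicates 1 and 2 (0.27, adjusted p = 0.186) or without the AcB55 arrays whose titles end in b (0.21, adjusted p = 0.343). The AcB61 arrays ranged from -0.68 on replicate 3 to 0.34 on replicate 8. Psmd4, the ubiquitin receptor of the regulator, was above 0 on all 8 AcB61 arrays, from 0.010 through 0.16 to 0.71, and ranged from -0.29 through 0.037 to 0.28 in AcB55. Its AcB61 mean of 0.24 ± 0.24 passed (limma adjusted p = 0.0274) and its AcB55 mean of 0.0072 ± 0.24 did not (adjusted p = 0.976). The AcB61 call was lost without replicates 3, 5 and 7 together (0.098, adjusted p = 0.393) and without replicate 3 or 7 alone (0.18 to 0.21, adjusted p = 0.0751 to 0.0854). Without replicates 2, 6 and 8 Psmd4 was 0.35 (adjusted p = 0.0104).

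Of the 7 lid subunits, 3 rose in AcB61 and none passed in AcB55 (limma, with none at an unadjusted p under 0.05 either). Psmd7, the partner of the deubiquitinating subunit, ranged from 0.063 through 0.24 to 0.60 in AcB61 and from -0.16 through -0.0068 to 0.30 in AcB55. All 8 AcB61 arrays were above 0, with a mean of 0.28 ± 0.19 (limma adjusted p = 0.00347), and the call held without replicates 2, 6 and 8 (0.37, adjusted p = 0.00138) and without replicates 3, 5 and 7 (0.20, adjusted p = 0.0348). Psmd11 ranged from -0.16 through 0.23 to 0.52 in AcB61 and from -0.077 through 0.070 to 0.25 in AcB55, with an AcB61 mean of 0.19 ± 0.21 (limma adjusted p = 0.0369). Psmd12 ranged from -0.0078 through 0.13 to 0.32 in AcB61 and from -0.061 through 0.030 to 0.21 in AcB55, with an AcB61 mean of 0.15 ± 0.11 (limma adjusted p = 0.0286). Both lid subunits lost the call without replicates 3, 5 and 7, at 0.085 for Psmd11 and 0.075 for Psmd12 (adjusted p = 0.418 and 0.36), and kept it without replicates 2, 6 and 8, at 0.27 for Psmd11 and 0.18 for Psmd12 (adjusted p = 0.00772 and 0.0314). Single arrays sufficed as well: AcB61 replicates 1, 3, 5, 6 or 7 for Psmd11 (adjusted p = 0.0701 to 0.118) and 3, 5, 6 or 7 for Psmd12 (0.0564 to 0.0801). With AcB61 fitted alone neither passed (limma adjusted p = 0.0801 for Psmd11 and 0.0521 for Psmd12). With array weights Psmd12 did not pass (0.11, limma adjusted p = 0.0712). The 2 probes of Psmd12 averaged 0.053 (not passed) and 0.24 (limma adjusted p = 0.00334) in AcB61.

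Psmd14, the deubiquitinase of the lid, averaged 0.24 ± 0.36 in AcB61 and 0.058 ± 0.12 in AcB55. In AcB61, replicates 2, 6 and 8 held 0.63 to 0.68 and replicates 3, 5 and 7 held -0.13 to -0.047, and the mean did not pass (limma adjusted p = 0.0594). It passed without replicates 3, 5 and 7 (0.44, adjusted p = 0.00124) and was -0.012 without replicates 2, 6 and 8. Psmd3, Psmd6 and Psmd8 averaged -0.072, 0.062 and 0.15 in AcB61 and 0.015, 0.061 and -0.034 in AcB55, and none passed over all arrays. Psmd8 was 0.21 (limma adjusted p = 0.0346) without replicates 3, 5 and 7 and 0.076 without replicates 2, 6 and 8. It also passed in AcB61 with array weights (0.14, adjusted p = 0.0456) and without AcB55 replicates 1 and 2 (0.15, adjusted p = 0.0458). The chaperones that help assemble the base did not pass over all arrays either. Psmd5 averaged 0.18 ± 0.19 in AcB61 (adjusted p = 0.0517 in limma) and 0.12 ± 0.20 in AcB55 (adjusted p = 0.293). Psmd5 passed in AcB61 without AcB55 replicates 1 and 2 (0.18, adjusted p = 0.0362) and not with array weights (0.14, adjusted p = 0.0789). Psmd10, also known as gankyrin, averaged 0.024 ± 0.19 in AcB61 and 0.016 ± 0.090 in AcB55. Psmc3ip, the recombination cofactor, averaged 0.14 ± 0.18 in AcB61 and 0.030 ± 0.19 in AcB55 and did not pass.

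Psme1, the alpha subunit of PA28, had the largest change of the 35 genes. It was below 0 on all 6 AcB55 arrays, from -1.04 through -0.74 to -0.40, and ranged from -1.06 through -0.24 to 0.046 in AcB61, where 2 of 8 arrays were above 0. It fell in both strains, with means of -0.36 ± 0.40 in AcB61 (limma adjusted p = 0.0177, n = 8) and -0.73 ± 0.23 in AcB55 (adjusted p = 0.000254, n = 6), folds of 0.78 and 0.602. The AcB55 value lay between -0.86 and -0.67 in all settings tried and stayed past the threshold. In AcB61 the decrease was carried by replicates 2, 6 and 8, at -1.06 to -0.58, whereas replicates 3, 5 and 7 read -0.092 to 0.046. Without the first 3 the AcB61 mean was -0.096 (adjusted p = 0.426), and without the other 3 it was -0.57 (adjusted p = 0.000831). The AcB61 call was also lost without replicate 6 or 8 alone (limma adjusted p = 0.051 to 0.0559) and with AcB61 fitted alone (adjusted p = 0.0507). The other PA28 subunits Psme2 and Psme3, and Psme4, were not analysed here.

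The strains were then compared directly, as AcB61 minus AcB55. The difference was above 0 for 29 of 35 genes (82.9%, against 53% of all features and 62.2% of single-symbol genes), with a median of 0.19, beside 0.012 over all features and 0.045 over single-symbol genes. Of the genes tested, 1 was higher in AcB61, none was lower, and 34 did not pass (limma, with 13 higher and 1 lower at an unadjusted p under 0.05), against 12.3% of all features that passed (5.29% higher and 6.98% lower) and 10.4% of single-symbol genes (6.79% higher and 3.63% lower). The gene was Psmb4, at 0.16 in AcB61 and -0.14 in AcB55, a difference of 0.30 (95% interval 0.12 to 0.49, adjusted p = 0.0343). Its ranges overlapped, as did those of all 35 genes, and 2.67% of all features had ranges that did not. This call was lost without AcB55 replicate 3, 4, 5 or 6 or AcB61 replicate 1 or 6 (adjusted p = 0.0517 to 0.098), and without AcB61 replicates 3, 5 and 7 together (0.26, adjusted p = 0.0542). Over all settings its adjusted p lay between 0.00817 and 0.126. The number higher in AcB61 was 9 with array weights, 9 without AcB61 replicates 2, 6 and 8 (Psmb4 among them) and 6 without replicates 3, 5 and 7 (Psmb4 not among them), and in each of the last 2 settings 1 gene was lower. The share of all features that passed in these settings is not given, so these counts are not read as particular to the proteasome genes. Leaving out 1 array at a time gave between 0 and 4 genes higher in AcB61, the 4 without AcB55 replicate 2.

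All 12 core subunits had a difference above 0, from 0.10 for Psmb11 to 0.35 for Psmb1, with a median of 0.27, and the 15 subunits of the 19S regulator had a median of 0.12 and a range from -0.30 for Psmc6 to 0.26 for Psmc2. Without AcB61 replicates 3, 5 and 7 the difference of Psmb5 was -0.034 (limma adjusted p = 0.879). The difference between core and regulator was not tested. The intervals for genes called in 1 strain alone mostly held 0 or came near it. Psmd2 differed by -0.15 (95% interval -0.39 to 0.091), Psma1 by 0.19 (-0.023 to 0.39), Psmd7 by 0.23 (0.030 to 0.43, adjusted p = 0.122) and Pomp by 0.24 (0.070 to 0.40, adjusted p = 0.0588). The Pomp difference passed with array weights (0.23, limma adjusted p = 0.0247), without AcB55 replicates 1 and 2 (0.31, 0.0222) and without AcB61 replicates 3, 5 and 7 (0.25, 0.0401). It did not without AcB61 replicates 2, 6 and 8 (0.21, 0.117) or 1 and 4 (0.24, 0.116), or without the AcB55 arrays whose titles end in b (0.22, 0.173). The Psmd7 difference passed with array weights (0.26, limma adjusted p = 0.0263). The same held without AcB61 replicates 2, 6 and 8 (0.32, 0.0302) and without AcB55 replicates 1 and 2 (0.33, 0.0398). It did not pass without AcB61 replicates 3, 5 and 7 (0.15, 0.251) or 1 and 4 (0.22, 0.248), or without the arrays marked b (0.20, 0.319). For Psmd1 the difference was -0.034, with an interval of -0.20 to 0.13. Psme1 was less reduced in AcB61, at -0.36, than in AcB55, at -0.73, but the difference of 0.37 (0.036 to 0.71) did not pass (limma adjusted p = 0.136). Without AcB61 replicates 2, 6 and 8 it was 0.64 and passed (adjusted p = 0.00134), and without replicates 3, 5 and 7 it was 0.16 (adjusted p = 0.487). With array weights the Psme1 difference was 0.44 and passed (limma adjusted p = 0.0187). It did not pass without AcB55 replicates 1 and 2 (0.50, adjusted p = 0.0753), without AcB61 replicates 1 and 4 (0.33, adjusted p = 0.292) or without the AcB55 arrays whose titles end in b (0.31, adjusted p = 0.357).

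**Figure D4:**
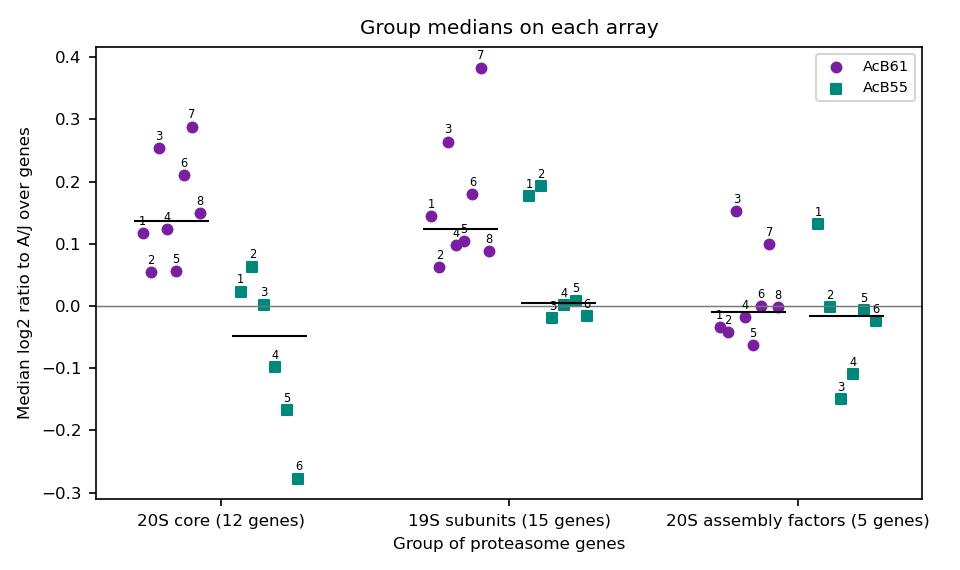
Median log2 ratio to A/J over the genes of the 20S core, the 19S regulator and the core assembly factors on each array, for AcB61 (circles) and AcB55 (squares), with replicate numbers beside the points and the median over arrays as a bar. All 8 AcB61 core medians lie above 0, from 0.054 to 0.29, and the AcB55 core medians run from -0.28 to 0.063.

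Array by array, the core medians were 0.054, 0.14 and 0.29 (lowest, median, highest) in AcB61 and -0.28, -0.048 and 0.063 in AcB55. Those of the 19S regulator were 0.063, 0.12 and 0.38 in AcB61 and -0.020, 0.0049 and 0.19 in AcB55. AcB55 replicates 1 and 2 held the highest medians of that strain in both groups, 0.18 and 0.19 for the regulator against 0.0088 at most on the other 4 arrays. AcB61 replicates 3 and 7 held the highest of theirs, 0.26 and 0.38 for the regulator. Granulocyte markers also stood apart on AcB55 replicates 1 and 2, with medians of 1.47 and 1.89 against 0.26 at most on the other 4 arrays, and their part in the proteasome values was not tested. Without AcB55 replicates 1 and 2 the count of genes higher in AcB61 than in AcB55 was 6, and the share of all features in that setting is not given.

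Of 19 measured partners, of 39 listed, of the proteasome (ubiquitin receptors, shuttles, the p97 ATPase system and transcription factors), 3 rose and none fell in AcB61, and 3 rose and 2 fell in AcB55, with medians of 0.052 in AcB61 and 0.012 in AcB55. The 3 increases are 15.8% of the list in each strain, near the 10.5% of all features that rose in AcB61 and the 9.77% in AcB55. Vcp, the p97 ATPase that extracts ubiquitinated proteins, rose in both, at 0.29 ± 0.22 in AcB61 and 0.32 ± 0.30 in AcB55 (limma adjusted p = 0.0148 and 0.0226). In AcB61 it was 0.15 (adjusted p = 0.253) without replicates 2, 6 and 8 and 0.43 (adjusted p = 0.00209) without replicates 3, 5 and 7. Nploc4, its cofactor, averaged 0.14 ± 0.13 in AcB61 and 0.51 ± 0.16 in AcB55, and differed between the strains by -0.36 (limma adjusted p = 0.0088). Nfe2l2, a regulator of antioxidant genes, averaged 0.0071 ± 0.11 in AcB61 and 0.34 ± 0.15 in AcB55, a difference of -0.33 (adjusted p = 0.00968). Sem1, a small lid subunit whose symbol falls outside the rule, averaged 0.069 ± 0.19 in AcB61 and -0.25 ± 0.16 in AcB55, a difference of 0.32 (adjusted p = 0.033) that was 0.23 without AcB61 replicates 2, 6 and 8 (adjusted p = 0.0953) and 0.43 without replicates 3, 5 and 7 (adjusted p = 0.00326). Ubqln2, a shuttle factor, fell in AcB55 (-0.33 ± 0.22), and Txnl1, a redox protein of the 19S regulator, rose in AcB61 (0.27 ± 0.37), where its mean was -0.025 on replicates 2, 6 and 8 and 0.69 on replicates 3, 5 and 7. The third increase in AcB61 was Akirin2 (0.12 ± 0.088), which carries proteasomes into the nucleus and was named after its value was seen. It was 0.11 (limma adjusted p = 0.127) without replicates 2, 6 and 8 and 0.092 (adjusted p = 0.203) without replicates 3, 5 and 7. Nfe2l1, the main activator of proteasome genes, averaged 0.19 ± 0.44 in AcB61 and -0.032 ± 0.10 in AcB55 and did not pass over all arrays, and it too was named after its value was seen. In AcB61 it was 0.48 and passed (limma adjusted p = 0.000169) without replicates 2, 6 and 8, and -0.0088 (adjusted p = 0.968) without replicates 3, 5 and 7. Without replicates 2, 6 and 8, 3 partners rose in AcB61 (Nfe2l1, Txnl1 and Rad23b) and 2 fell. The 2 were Ufd1 (-0.20, limma adjusted p = 0.00591) and Uchl5 (-0.17, adjusted p = 0.0441), and they and Rad23b were named after their values were seen. Without replicates 3, 5 and 7, 2 partners rose and none fell. The shares of all features in these settings are not given.

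Among 11 measured genes of interferon-linked antigen processing, with which PA28 is usually induced, none rose and 5 fell in AcB61, and 2 rose and 5 fell in AcB55 (medians -0.19 in AcB61 and -0.21 in AcB55), where 13.3% of all features fell in AcB61 and 9.77% rose and 10.9% fell in AcB55. B2m (beta-2 microglobulin of the class I complex) fell alongside Psme1 in both strains, at -0.65 ± 0.26 in AcB61 and -0.84 ± 0.33 in AcB55, and so did the transcription factor Irf1, at -0.45 ± 0.25 in AcB61 (n = 7) and -0.69 ± 0.21 in AcB55. Bst2 averaged -0.19 ± 0.22 in AcB61 and -0.71 ± 0.23 in AcB55, and passed in AcB55 alone, with a tested difference (0.52, limma adjusted p = 0.0074). H2-K1, a heavy chain of class I, and the GTPase Igtp averaged -0.51 and -0.48 in AcB61 and 0.19 and 0.33 in AcB55, with differences of -0.70 and -0.81 (limma adjusted p = 0.00478 and 0.000604). In AcB61 both were lower on replicates 3, 5 and 7 (-0.75 for H2-K1 and -0.79 for Igtp) than on replicates 2, 6 and 8 (-0.12 and -0.26), the opposite order to Psme1, and B2m was -0.39 on the first set and -0.90 on the second. H2-K1, Igtp, B2m and Irf1 passed in AcB61 without the one set and without the other. Canx, the chaperone calnexin, averaged 0.094 ± 0.17 in AcB61 and 0.32 ± 0.078 in AcB55, where it passed.

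Markers of cell types moved in the same comparisons. Of all features, 10.5% rose and 13.3% fell in AcB61, and 9.77% rose and 10.9% fell in AcB55. All 8 of 8 tested markers of cycling cells (of 9 listed) rose in each strain, with array medians of 0.53 to 0.99 in AcB61 and 0.69 to 1.03 in AcB55. Of 7 tested red cell markers (of 12), 5 rose in AcB61 and 4 in AcB55, where 1 fell, with array medians of 0.44 to 0.82 in AcB61 and 0.10 to 0.74 in AcB55. The alpha globin Hba-a1 did not pass in either strain (0.040 in AcB61 and -0.013 in AcB55). Blnk, the only 1 of 6 B cell markers tested, fell by 0.58 in AcB61 and by 1.07 in AcB55, and of 4 tested macrophage markers (of 9) 1 fell in AcB61 and 3 in AcB55. Of 3 tested granulocyte markers (of 8) 2 rose in AcB61 and 1 in AcB55, with array medians of 0.52 to 1.38 in AcB61 and -0.090 to 1.89 in AcB55, and Satb1, the only T cell marker tested, fell in AcB55. In AcB61 the counts of cycling, red cell, B cell and granulocyte markers that passed were the same without replicates 2, 6 and 8 and without replicates 3, 5 and 7, and that of macrophage markers was 1 and 2 lower in these settings. Cpa1 of the exocrine pancreas, the only 1 of 7 tested, did not pass in either strain but ranged from -3.58 to 2.37 over the AcB55 arrays. The part of these cells in the proteasome values was not tested.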

How the data were processed

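The deposited table holds one value per feature and array, read here as a log2 ratio of the channels because the values are positive and negative decimals with array medians between -0.0205 and 0.0087. Base 2 was assumed. Per the labels, ScanArray images were quantified with QuantArray 3.0 and imported into GeneSpring. The normalization, the dye of each channel and the spot intensities are not given in the sources used here. Each array gave 14197 to 14588 values, and the number of arrays limits the precision.

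Symbols came from the platform annotation, and probes with several symbols stayed unnamed. Probes of a gene were averaged per array. Features with values on at least 3 arrays of each strain were fitted over all 14 arrays with limma 3.58.1 in R 4.3.3 (lmFit, a mean per strain, eBayes), without covariates and with no recentring, and two-sided p-values were adjusted by Benjamini and Hochberg over 13045 features. On simulated arrays in which 200 of 11693 features were changed in AcB61, the fit called 186 of these and 5 others in that comparison. The size of change and the spread used there are not given here. Recovery of values as small as those of the proteasome genes was not tested. The same holds for arrays that do not form a single group, as in AcB61. Figures used Python 3.11.15 with matplotlib 3.10.9.

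Every member is reported, with ranges over arrays for those past the threshold of 0.05 in any comparison, and partners by size of change, up to 6 a list. Members and lists were chosen with earlier results of these data known. Alternatives were centring, complete features, array weights, single probes, separate strains and left-out arrays.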

Additional observations from a re-analysis of the deposited data

Results flagged for a closer look

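Among 72 checks of 36 genes in 2 strains, 4 genes had an array far from the rest of its strain, where chance alone flags about 1 in 20. Psma7 read -0.56 on AcB55 replicate 6, below the other 5 arrays. Psmc3 read 0.55 on AcB61 replicate 8, Psmc3ip 0.51 on AcB61 replicate 6 and Psmg2 0.34 on AcB55 replicate 2, each above the other arrays of its strain. Psmb4 differed between the strains by the test of the difference itself, at 0.30 for AcB61 minus AcB55.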

How the results depend on the processing

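No paired analysis was possible because the labels give no replicate numbers that AcB61 and AcB55 share. The AcB55 counts (2 genes higher, 2 lower) were 1 higher without the 2 AcB55 arrays whose titles end in b and without AcB55 replicates 1 and 2, and 4 lower with array weights and without AcB61 replicates 2, 6 and 8 or 3, 5 and 7, which enter through the shared spread. The AcB61 counts (13 higher, 1 lower) were 7 higher without replicates 1 and 4, 2 lower without replicates 3, 5 and 7, and 0 lower with each strain fitted alone. For AcB61 minus AcB55 (1 higher, 0 lower), the higher count was 9 with array weights and without AcB61 replicates 2, 6 and 8, 6 without AcB55 replicates 1 and 2 and without AcB61 replicates 3, 5 and 7, and 0 without the arrays marked b and without AcB61 replicates 1 and 4. The lower count was 1 without either set of 3 AcB61 arrays (Psmc6 or Psmd2). Leaving out each array in turn gave 1 to 3 higher and 2 to 3 lower in AcB55, 9 to 15 higher and 0 to 1 lower in AcB61, and 0 to 4 higher and 0 lower between the strains. No call changed sign. Causes of these shifts were not tested, and the shares of all features that passed in these settings are not given. Centring and complete features moved no count by over 1.5 times. The settings that leave out AcB61 replicates 2, 6 and 8, 3, 5 and 7, or 1 and 4 were chosen after seeing the data. Intensities were not used, so signal over background is unknown.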
